A study of Homo sapiens with 3 samples.

Results

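The 8 genes described here encode the human DNA topoisomerases TOP2A, TOP2B, TOP1, TOP1MT, TOP3A and TOP3B and the phosphodiesterases TDP1 and TDP2. They were picked by name, not by their values, though with earlier results of these data known. The rule took the probes whose gene name on the array was one of these symbols, with TDP2 under its older name TTRAP. This gave 10 probes of 34127 on the array and 8 of 27274 gene names. RNA came from HepG2 cells, an established human hepatocellular carcinoma line grown in RPMI 1640 medium with fetal bovine serum, and was hybridized to 1-color Agilent arrays. Control cells (0 μM), cells given 10 μM etoposide (the low dose) and cells given 100 μM etoposide (the high dose) were each harvested at 30 h, with no other difference in genotype or treatment named. Each condition was 1 sample on 1 array, and the 3 arrays shared 1 slide. The control is called untreated in the sample labels and DMSO in the study's text. No test between conditions was therefore possible, and every fold change is a description of these 3 arrays.

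Topoisomerases cut DNA, let it swivel or let another segment pass, and reseal it, and during the cut a tyrosine of the enzyme is joined to a DNA end. The type I enzymes open a single strand, whereas the type II enzymes TOP2A and TOP2B open both strands and are the targets of etoposide, which holds them on the cut ends. TOP2A is made mainly by dividing cells and is needed to separate sister chromosomes, while TOP2B is present in dividing and resting cells. Enzyme left on an end is removed by proteases and nucleases or by TDP2, which works mainly on TOP2 adducts, and by TDP1, which works mainly on TOP1 adducts.

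The first 30 of the 60 bases of the probes are shown because they identify the transcripts that the values below stand for, and 2 genes were measured at separate places. Letters are in lower case from the 5′ end, as the array files give them, and the probe of TOP1MT is not printed.
TOP2A probe: tgtgaggcgattattttaagtaattatctt
TOP2B probe: tcaacaaatatcttgtgttgtccttttgtc
TOP1 brighter probe: tggatgggaatttgtcagcgttctaccagg
TOP1 dimmer probe: agtttgacttcctcgggaaggactccatca
TOP3A probe: ttctcatagacgtcctgagaaggacggtat
TOP3B brighter probe: ggctgcagtgccatgcagacacctcatggc
TOP3B dimmer probe: ctgggccacaccctggacgtgttcaagagg
TDP1 probe: gcacccttacaaaatctttccaaaggtcac
TDP2 probe: tcggtttgatagcaccatgggacatttttc
On hg18, the build of the files, the probe of TOP2A lies at chr17:35799235-35799294 on the minus strand and that of TOP2B at chr3:25614718-25614777 on the minus strand. The probes of TOP1 lie at chr20:39185619-39185678 (brighter) and chr20:39176148-39176207 (dimmer) on the plus strand. That of TOP3A lies at chr17:18118355-18118414, and those of TOP3B at chr22:20641404-20641463 (brighter) and chr22:20643960-20644019 (dimmer), all on the minus strand. The probe of TDP1 lies at chr14:89579340-89579399 on the plus strand and that of TDP2 at chr6:24758313-24758372 on the minus strand. Which exon or untranslated part a probe covers was not determined here.

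Signals below are background-subtracted spot intensities, which are not comparable between different probes, since each probe binds with its own strength. Fold changes were computed after each array was set relative to its 75th percentile, which was 514 (control), 536 (low dose) and 432 (high dose). The software called between 19836 and 20150 probes per array well above background, and all 10 probes of the 8 genes passed that call on all 3 arrays. The error given as SD with a log2 fold change combines the spot errors of its 2 arrays, so it leaves out differences between cultures. For TOP2A and TOP2B the spot error is that of a mean, the SD between the probe's 10 spots divided by the square root of 10. For the other genes, spotted once, it is the SD between repeated spots of like brightness within an array. The errors of TOP2A and TOP2B are thus smaller in kind than those of the other genes. All 10 hepatocyte and HepG2 markers, albumin and AFP among them, were well above background on every array, and the 3 fibroblast collagens on none. The 3 leukocyte markers were well above background too, with summed signals of 1099.6 (control), 866 (low dose) and 994 (high dose), as were the 2 endothelial markers with 521, 351 and 328, and their part in the results was not tested. In bulk RNA, fewer cells of a type and less of an RNA per cell cannot be told apart.

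TOP2A, the topoisomerase of dividing cells, gave a signal of 803 (control), 962 (low dose) and 117 (high dose). Its probe was spotted 10 times on each array, and the spots read 769 to 849 (median 793) in control cells, 883 to 1037 (median 981) under the low dose and 99.8 to 126 (median 120.0) under the high dose. As unscaled signals, no spot of an array overlapped with a spot of another array, and the high dose stood far below both. The control and low dose ranges lay close (849 and 883 at their near ends), and scaling can close that gap. How many other probes spotted 10 times had ranges that did not overlap was not counted. After scaling, TOP2A was 5.79-fold lower at the high dose than in control cells (log2 -2.53, SD 0.04) and 1.15-fold of control at the low dose (log2 0.20, SD 0.03). The low dose was thus 6.65-fold above the high dose (log2 2.73, SD 0.05). Among all genes measured, 0.447% lay lower than TOP2A at the high dose relative to control.

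TOP2B, its paralog and the other etoposide target, gave 3028 (control), 2368 (low dose) and 1971 (high dose). Its spots ran from 2909 to 3213 (median 3029) in control cells, from 2236 to 2501 (median 2362) under the low dose and from 1853 to 2090 (median 1979) under the high dose. As unscaled signals these ranges did not overlap either. The ranges of the 2 doses lay close (2236 and 2090 at their near ends), and scaling can close that gap. Here too, the share of other probes spotted 10 times without overlap was not counted. After scaling, TOP2B was below control 1.33-fold under the low dose (log2 -0.42, SD 0.02) and 1.29-fold under the high dose (log2 -0.37, SD 0.02), neither of which reached 2-fold. Low over high dose was 0.969-fold (log2 -0.05, SD 0.02). That last difference had no settled direction, as only 4 of 7 ways of scaling gave a value below 0.

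**Figure D1:**
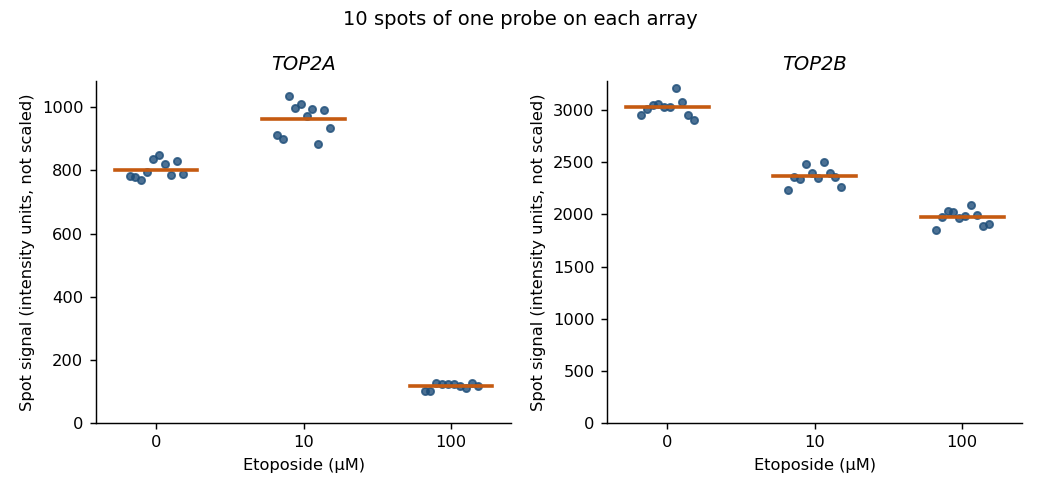
Signal of each of the 10 spots of the TOP2A probe and of the TOP2B probe on the 3 arrays (intensity units, not scaled, axis from 0) against the etoposide dose in μM; points are spots of one array, not cultures. The TOP2A spots at the high dose lie between 99.8 and 126, below every spot of the other arrays, whereas those of TOP2B at the high dose lie between 1853 and 2090.

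A single scaling factor per array cancels in the difference between the paralogs. TOP2A minus TOP2B in log2 fold change was 0.62 (SD 0.04) for the low dose over control and -2.16 (SD 0.05) for the high dose over control. For the low over the high dose it was 2.78 (SD 0.05). In all comparisons the gap exceeded the spread between spots, and the paralogs were furthest apart between the doses.

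Of the 8 genes, 0 passed 2-fold in either direction at the low dose relative to control, where 3.39% of 16659 genes measured were higher and 1.58% lower. At the high dose relative to control 0 were higher and 1 was lower, namely TOP2A, beside 6.83% of 16771 genes higher and 3.68% lower. For the low over the high dose 1 of 8 was higher, again TOP2A, and 0 were lower, beside 3.66% of 16685 genes higher and 3.96% lower. At 3-fold the calls were the same, with TOP2A beside 1.66% of genes lower and 1.87% higher for the high dose over control, and beside 1.89% higher and 0.845% lower for the low over the high dose. At that threshold 1.29% of genes were higher and 0.36% lower for the low dose over control. At 1.5-fold TOP2A and TDP1, 2 of 8, were lower at the high dose, beside 9.8% of genes lower and 18.6% higher. TOP2A, TDP1 and TOP3A, 3 of 8, were then higher for the low over the high dose, beside 7.53% of genes higher and 14.3% lower. At 1.5-fold 0 of 8 passed for the low dose over control, beside 9.08% of genes higher and 6.47% lower. The share of all genes that passed 2-fold moved with the scaling. Without scaling it was 3.74% higher and 6.33% lower for the high dose over control, and 5.97% higher and 1.70% lower for the low over the high dose. The median log2 change of the 8 genes was 0.12 (low dose over control), -0.39 (high dose over control) and 0.30 (low over high dose), against -0.04, 0.10 and -0.11 over all genes.

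**Figure D2:**
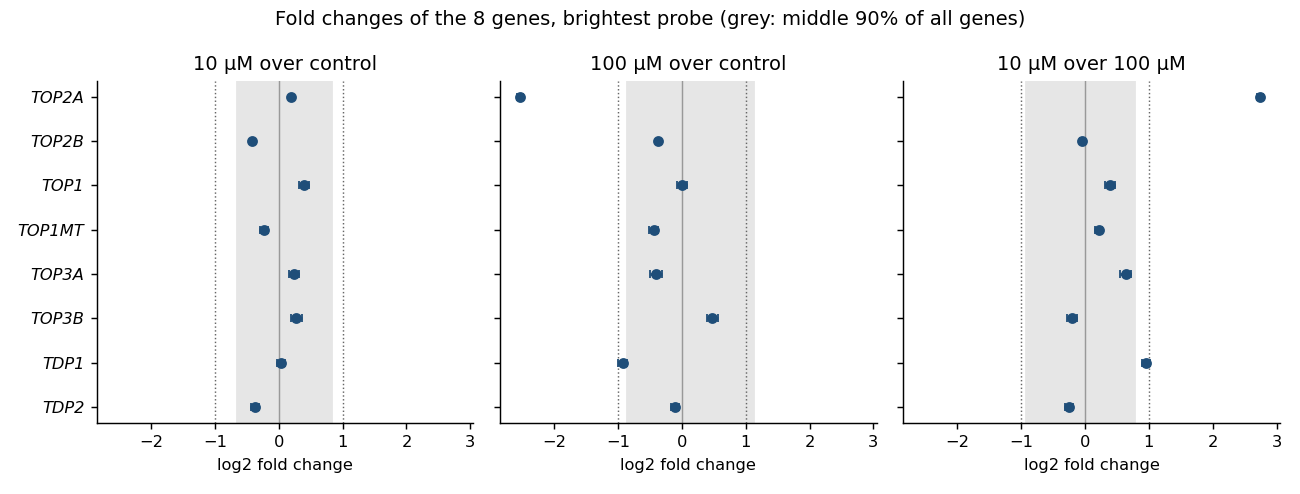
Log2 fold change (horizontal axes, after 75th percentile scaling) of the brightest probe of each of the 8 genes in the 3 comparisons. Bars are the spot error of the fold change, which for TOP2A and TOP2B is that of a mean over 10 spots. Dotted lines mark 2-fold and grey bands hold the middle 90% of all genes. Only TOP2A lies past a dotted line, at -2.53 for the high dose over control and at 2.73 for the low over the high dose.

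TDP1, which frees DNA ends from TOP1 peptides, came closest to the threshold among the other genes. Its signal was 1057 (control), 1130.0 (low dose) and 468 (high dose), lowest at the high dose and within 1.02-fold of control at the low dose once scaled. At the high dose it was 1.90-fold lower than in control cells (log2 -0.93, SD 0.07), and the low dose was 1.95-fold above the high dose (log2 0.96, SD 0.06). Without scaling these became 2.26-fold and 2.42-fold, both past the threshold. Of all genes measured, 4.24% lay lower than TDP1 at the high dose relative to control.

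TDP2, which frees DNA ends from TOP2 peptides, gave a signal of 5166 (control), 4182 (low dose) and 4019 (high dose). It was 0.776-fold of control at the low dose (log2 -0.37) and 0.925-fold at the high dose (log2 -0.11). TDP1 minus TDP2 in log2 fold change was -0.81 (SD 0.10) at the high dose and 0.40 (SD 0.09) at the low dose. The pair therefore moved apart in opposite directions at the 2 doses, by more than the spread between spots.

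TOP1, which relaxes supercoils ahead of polymerases, was measured by 2 probes with signals of 489 and 261 (control), 670.3 and 371 (low dose), and 412 and 229 (high dose). Both probes were highest at the low dose. Relative to control the low dose was 1.31-fold by the brighter probe (log2 0.39, SD 0.08) and 1.36-fold by the dimmer one. The high dose lay at log2 0.0027 and 0.06 over control, and the brighter probe's value was above 0 in 3 of 7 ways of scaling. A probe of the pseudogene TOP1P2 also gave signals well above background, of 359, 454 and 296, and whether the TOP1 probes bind its transcript was not tested.

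TOP1MT, the topoisomerase of mitochondria, gave 4061 (control), 3614 (low dose) and 2513 (high dose), in the order of the doses. This was 0.853-fold of control at the low dose and 0.736-fold at the high dose. TOP1 minus TOP1MT was 0.62 (SD 0.10) in log2 fold change at the low dose and 0.45 (SD 0.10) at the high dose, so the change of TOP1 was the higher one under both.

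TOP3A, which untangles recombination intermediates together with the BLM helicase, gave 296 (control), 364 (low dose) and 188 (high dose). Its highest value was that of the low dose and its lowest that of the high dose, and the low dose was 1.56-fold above the high dose (log2 0.64). TOP3B, a relative that also acts on RNA, gave 253, 319.8 and 296 by its brighter probe and 115, 151 and 133 by its dimmer one. At the high dose these were 1.39-fold and 1.38-fold of control, and TOP3B was the highest of the 8 genes in that comparison. TOP3A minus TOP3B in log2 fold change was -0.04 (SD 0.12) at the low dose and -0.88 (SD 0.13) at the high dose. The gap between them was within the spot error under the low dose and well past it under the high dose.

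**Figure D3:**
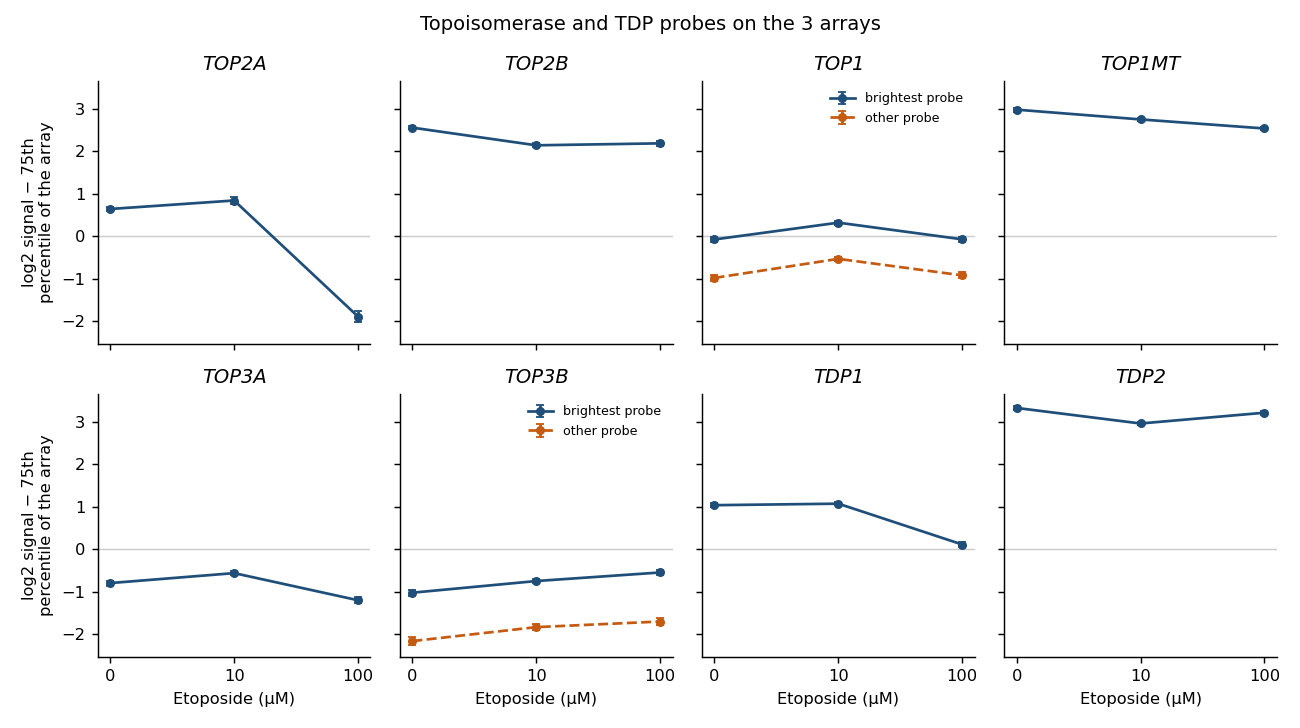
Signal of each probe of the 8 genes (vertical axes, log2 units above or below the array's 75th percentile) against the etoposide dose in μM, with the brighter and the dimmer probe of TOP1 and of TOP3B drawn apart; each point is 1 array, bars are the SD between spots and doses are evenly spaced. TOP2A and TDP1 are near their control level at the low dose and below it at the high dose, by 2.53 and 0.93 on the log2 scale.

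In order of the change at the high dose relative to control, TOP2A was lowest and TDP1 next, and both stood apart from their neighbors by more than 2 SD of the spot error. TOP1MT, TOP3A and TOP2B followed with log2 values of -0.44, -0.40 and -0.37 and could not be ordered by this criterion. TDP2 and TOP1 were not separated from each other either, and TOP3B stood above all of them. In signs, 6 of the 8 genes were below 0 at the high dose, beside 42.4% of all genes, and 5 were above 0 at the low dose, beside 45.4%. The sign of TOP1 at the high dose turned with the scaling, as given above. The share of all genes below 0 at the high dose moved with it too. Their median log2 change ran from -0.19 with median scaling to 0.16 with the 75th percentile over all spots.

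Proteins that condense and segregate chromosomes in mitosis act on the same chromosomes as TOP2A, and 19 of 20 such genes could be measured. This list, like the others here, was chosen with earlier results of these data known, so its counts are a description only. At the high dose 18 of 19 were over 2-fold lower than in control cells, against 3.68% of all genes, with a median log2 change of -2.46. Among those well above background on both arrays, the lowest by brightest probe were KIF4A, a chromosome motor (log2 -3.66), and BIRC5, a subunit of the chromosomal passenger complex (log2 -3.61). Next came the mitotic kinase PLK1 (log2 -3.28). The other probes of KIF4A and PLK1 were at -2.76 and -2.33, so this order depended on the probe. The condensin subunit NCAPH2 was the exception at -0.78 by its brightest probe, and its 3 probes ran from -0.78 to 0.29. MKI67, a marker of dividing cells, had signals of 591, 676 and 106.9 and a log2 change of -2.22 at the high dose. At the low dose 0 of 19 passed 2-fold, beside 3.39% of all genes higher and 1.58% lower. Their median there was 0.03, against -0.04 over all genes. Between the doses 19 of 19 were over 2-fold higher at the low dose, beside 3.66% of all genes. Their median was 2.54, against -0.11 over all genes and 2.73 for TOP2A, although the probes of NCAPH2 ran from 0.50 to 1.21 there. AURKB was not well above background at the high dose, so its value there is a bound.

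The 5 genes whose pair of changes over control lay nearest to that of TOP2A, among 12045 genes with a RefSeq mRNA accession, were VRK1, SGOL1 (now SGO1), TPX2, KIF2C and CENPN, at log2 distances of 0.03 to 0.15. SGOL1 guards the cohesion of centromeres, TPX2 and KIF2C act on spindle microtubules, CENPN belongs to the centromere and VRK1 is a chromatin kinase. Only 51 genes lay within 0.5 of TOP2A. Around TOP2B 4065 did, and the nearest, UGDH, SND1, RALA, FAM176A (now EVA1A) and ZNF516, were within 0.01 of it. Likeness over 3 arrays rests on 2 numbers per gene.

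**Figure D4:**
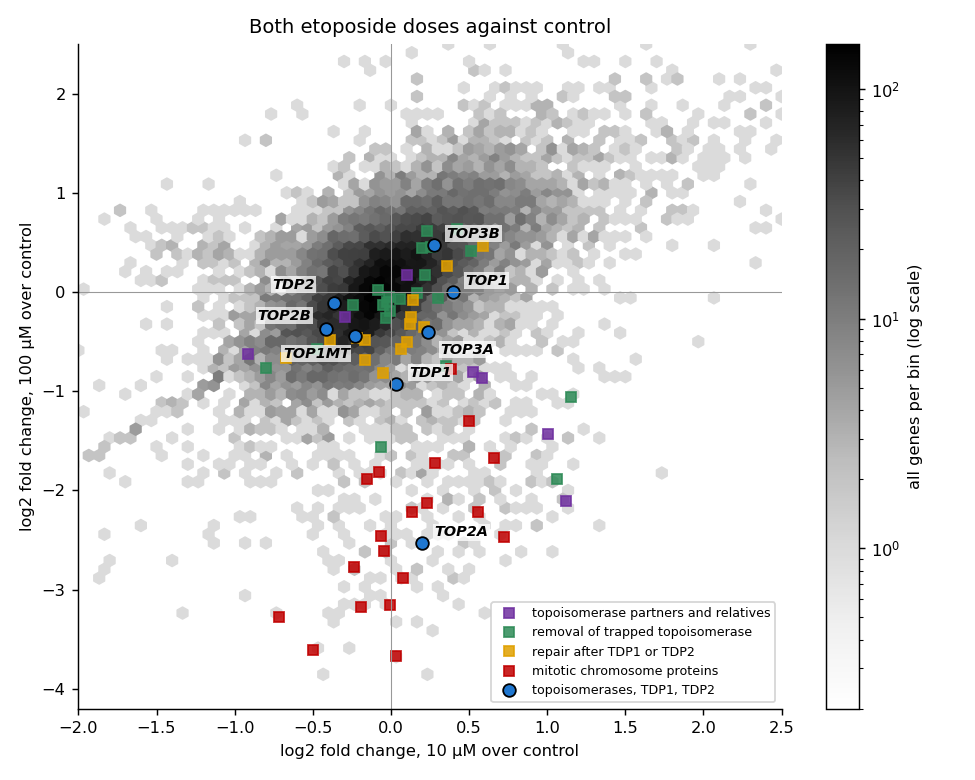
Log2 fold change at the low dose (horizontal axis) and at the high dose (vertical axis), each over the same control array; grey hexagons count all genes on a log scale, squares are the 4 gene lists and circles the 8 genes. Genes beyond the axes are not drawn. TOP2A, at 0.20 and -2.53, lies among the mitotic chromosome proteins, and the other 7 circles lie within or at the edge of the grey cloud.

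Partners of the topoisomerases included genes that went opposite ways at the 2 doses. Of 9 in the list, 7 could be measured, SPO11 was below background and HMGB1 is not analysed here. BLM, the helicase partner of TOP3A, gave signals of 469.9 (control), 1065 (low dose) and 91.5 (high dose). It was higher at the low dose (log2 1.12) and lower at the high dose (log2 -2.11) than in control cells. RMI2, another subunit of that complex, gave 2106, 4419 and 657, with log2 changes of 1.01 and -1.43. In this list 2 of 7 were over 2-fold higher at the low dose, beside 3.39% of all genes, and the same 2 were lower at the high dose, beside 3.68%. The list medians were 0.53 and -0.81. FMR1 was at log2 -0.29 and -0.25 and TOPORS at 0.10 and 0.17. TDRD3, the partner of TOP3B, was 1.89-fold below control at the low dose, where its signal of 23.2 was not well above background. It was at -0.63 at the high dose, with a signal of 22.8. Both signals were near the lowest called well above background on their arrays (22.7 and 21.6). Between the doses 4 of 7 were higher at the low dose, beside 3.66% of all genes, namely BLM (log2 3.23), RMI2 (2.44), TOPBP1 (1.45) and RMI1 (1.33). TOP3A itself differed by 0.64 in that comparison.

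Genes for the removal of trapped topoisomerase by nucleases, SUMO and ubiquitin ligases and proteases were all measured, 22 of 22. EME1, a nuclease subunit (log2 1.15), and BRCA1 (1.06) were over 2-fold higher at the low dose, 2 of 22 beside 3.39% of all genes. BRCA1 (log2 -1.88), the end-resection factor RBBP8 (-1.56) and EME1 (-1.06) were lower at the high dose, 3 of 22 beside 3.68%. The list median was 0.11 (low dose) and -0.08 (high dose). Between the doses 4 of 22 were higher at the low dose, beside 3.66% of all genes, namely BRCA1 (log2 2.95), EME1 (2.21), MRE11 (1.10) and, at 2.82-fold, RBBP8, and 0 were lower. The highest values at the high dose over control were those of the nuclease subunit ERCC1 (log2 0.64) and the segregase VCP (log2 0.62), and ZNF451, a SUMO ligase that works with TDP2, was at -0.13.

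Genes that repair the break once TDP1 or TDP2 has cleared it showed 0 of 14 past 2-fold in any comparison. With 1.58% to 6.83% of all genes past it in a direction, this is near the share of all genes. APLF and LIG4 were below background. The list median was 0.08 under the low dose and -0.48 under the high dose, against -0.04 and 0.10 over all genes. Under the high dose 12 of 14 were below 0 by their brightest probe, beside 42.4% of all genes, both with the percentile scaling. The share of all genes moved with the scaling, as given above. The lowest at the high dose were the kinase PRKDC (log2 -0.82), PARP1 (-0.69) and ATM (-0.67 by its brighter probe), and the highest was APTX (0.47). The other probe of ATM was at 0.44, so its sign and its place in this order depended on the probe. TDP1, at -0.93, lay below all of them, whereas TDP2, at -0.11, lay above the list median.

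The promoters of the TOP2 genes are shown because promoters of mitotic genes are known for CCAAT boxes and CHR elements. Both are the 250 bases before the transcription start on GRCh38.p14 from RefSeq, printed 5′ to 3′ along the gene, with matches to CCAAT and TTTGAA on either strand in capitals.
TOP2A promoter, chr17:40417897-40418146, minus strand: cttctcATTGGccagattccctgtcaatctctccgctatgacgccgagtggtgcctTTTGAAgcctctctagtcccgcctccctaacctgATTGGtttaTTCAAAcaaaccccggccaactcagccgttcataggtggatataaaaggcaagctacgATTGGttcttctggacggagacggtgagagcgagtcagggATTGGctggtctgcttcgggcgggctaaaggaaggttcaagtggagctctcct
TOP2B promoter, chr3:25664908-25665157, minus strand: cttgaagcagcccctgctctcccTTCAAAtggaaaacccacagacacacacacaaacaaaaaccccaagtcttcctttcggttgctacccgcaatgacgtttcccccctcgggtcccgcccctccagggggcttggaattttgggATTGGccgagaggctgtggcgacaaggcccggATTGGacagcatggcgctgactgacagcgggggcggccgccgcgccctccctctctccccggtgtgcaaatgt
The window of TOP2A held 4 matches to CCAAT, starting 244, 160, 93 and 53 bases before the start, all on the opposite strand. It also held 2 matches to TTTGAA, at 194 and 151, and none of these overlapped. That of TOP2B held 2 matches to CCAAT, at 105 and 73, and 1 to TTTGAA, at 227. Its other listed start had neither. Of the windows of TOP1, TOP3A, TOP3B, TDP1 and TDP2, none held CCAAT, and TOP1MT had no window in the table. The window of TDP1 was at another listed start, not at the gene start, and held TTTGAA 1 time. The E2F motif TTTCGCGC was in no window of these genes, and GGGCGG was in those of TOP2A, TOP2B, TOP1, TOP3A and TDP2. Among all 35116 windows of the same length, 32.0% held CCAAT, 13.3% TTTGAA, 42.6% GGGCGG and 0.439% TTTCGCGC at least 1 time. Of these windows, 3347 held CCAAT and 605 held TTTGAA 2 or more times. The matches above are letters in a window and were not measured as binding. Any part of them in the fold changes was not tested, and the promoters of the mitotic gene list are not described here.

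The direction of a small change depended on how the arrays were scaled. Relative to the percentile scaling, the median of all genes for the high dose over control shifted by -0.25 without scaling, by -0.29 with median scaling and by -0.17 with spike-in scaling. TOP2A stayed between -2.82 and -2.47 under 7 ways of scaling for the high dose over control and was -1.98 with another background correction (normexp with an offset of 50). TDP1 ranged from -1.22 to -0.87. TOP2B stayed below 0 at both doses, from -0.44 to -0.35 (low) and from -0.66 to -0.31 (high). TOP1 at the high dose ranged from -0.29 to 0.06 and so had no settled sign. The low over the high dose had no settled sign for TOP2B, TOP3B (-0.27 to 0.11) and TDP2 (-0.32 to 0.06).

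**Figure D5:**
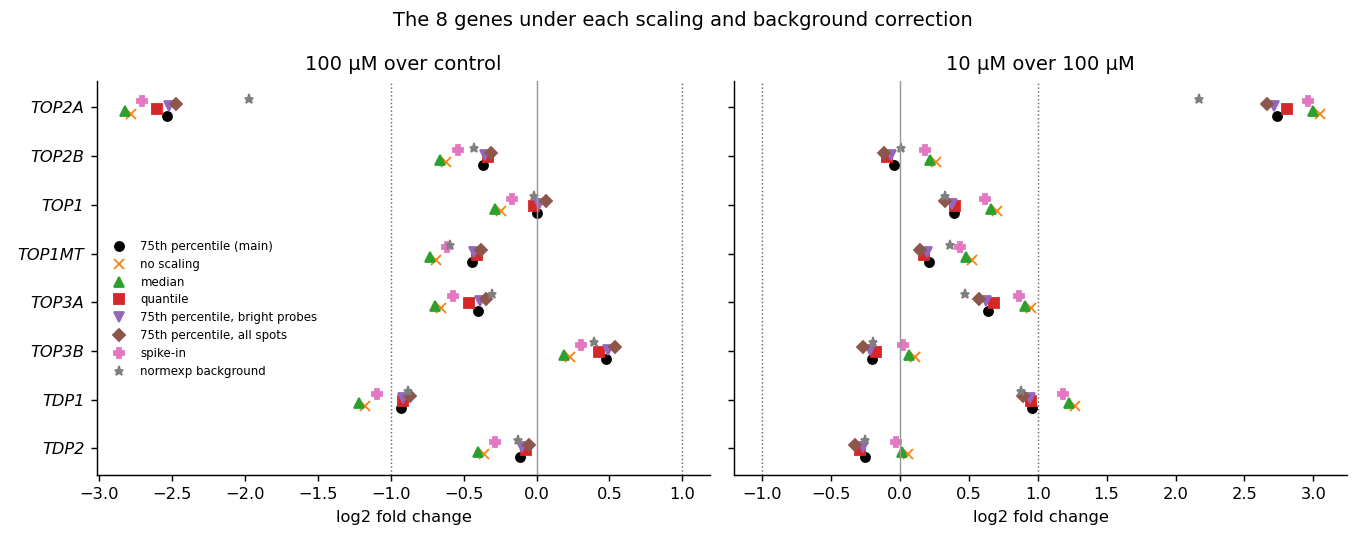
Log2 fold change (horizontal axes) of the brightest probe of the 8 genes for the high dose over control (left) and the low over the high dose (right) under 7 ways of scaling the arrays and under normexp background correction, one marker for each; dotted lines mark 2-fold. TOP2A runs from -2.82 to -1.98 for the high dose over control, whereas the markers of TOP1 lie on both sides of 0.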

How the data were processed

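Total RNA from HepG2 cells was labeled with Cy3 and hybridized to 1 Agilent array per condition. The authors deposited the intensity of each spot after background subtraction in Agilent Feature Extraction (version 10.7.3.1, per the labels), with no scaling between arrays. The deposited series table held the same intensity for all 44495 spots. Log2 intensities were averaged over a probe's spots, leaving out outlier spots, and the 75th percentile over the 34127 probes was subtracted array by array. A gene was its brightest probe. A fold was taken if the brighter condition was called well above background, and the dimmer signal was raised to at least the lowest such signal on its array (19.5, 22.7 and 21.6). For a probe spotted once, the spot error was the median SD of the 50 repeated probes of nearest signal. For TOP2A and TOP2B it was the SD of their own spots divided by the square root of the number of spots.

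Members and gene lists were chosen with earlier results of these data known. Named were all members, the 3 highest and 3 lowest of each list, and the 5 genes most like TOP2A or TOP2B. RMI1, MRE11, MKI67 and ZNF451 were added after their values were seen. Gene names are those of the array, updated through RefSeq (GRCh38.p14). Alternatives were other scalings, normexp, other filters and thresholds, other probe rules and the series table. Calculations were tested on simulated data. The tools were limma 3.58.1 in R 4.3.3, and Python 3.11.15 with scipy 1.17.1, numpy 2.4.6 and pandas 2.3.3.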

Additional observations from a re-analysis of the deposited data

How the results depend on the processing

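Past 2-fold, the count of the 8 genes was 1 at the high dose over control and 1 for the low over the high dose (TOP2A in both). Without scaling, with median scaling and with spike-in scaling the counts were 2 and 2 (TOP2A and TDP1). At 1.5-fold they were 2 (TOP2A, TDP1) and 3 (with TOP3A). At the low dose over control the count was 0 under every alternative. No called fold change reversed. Of 288 recomputed fold changes of single genes 75 moved by more than the spot error, and of 108 list medians 35 moved by more than 0.1. Over all genes and alternatives in scaling, filter and background correction, the share lower at the high dose over control ranged from 2.55% to 6.97%. Each condition had 1 array, which limits the precision, and the spread between cultures is unknown. No paired analysis was possible because there were no replicates to pair.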
